A study of Homo sapiens with 6 samples.

Results

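The enzymes described here belong to asparagine, serine, glycine, proline, phosphoenolpyruvate and mitochondrial one-carbon metabolism. Their 10 genes are ASNS, PCK2, PHGDH, PSAT1, PSPH, SHMT2, MTHFD2, ALDH1L2, PYCR1 and ALDH18A1. They were picked by symbol from the 23204 gene symbols of the expression tables, and each symbol was represented by its row with the highest mean expression over the libraries. The members were chosen by function with measured values in view, since the low level of ASNS after DDX3X siRNA was already known. All values below are therefore a description, and the siRNA comparison supports nothing beyond itself. All 10 enzymes passed the filter on low values in every comparison.

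RNA-seq expression profiles of HEK293T cells, a human embryonic kidney line, were collected in 6 libraries with 1 library per group. In the siRNA arm, cells received control siRNA or DDX3X siRNA for 48 h and no sorting is described, DDX3X being an RNA helicase of the DEAD-box family. In the plasmid arm, cells were transfected with 5 µg of a plasmid encoding GFP alone, GFP-DDX3X wild type (WT), GFP-DDX3X T275M or GFP-DDX3X G302V, and after 32 h the cells positive for GFP were collected by flow cytometry. T275M and G302V are substitutions associated with medulloblastoma, and the plasmid cells keep their own DDX3X. A plot legend of the study names another mutant in place of T275M, so the identity of that library rests on its sample label. The sample labels also call the cells neuronal. Of 12 neuronal markers, 5 reached 1 RPKM in every library and 3 stayed under 0.1 RPKM in all, and the 12 summed to 641 to 837 RPKM. The neurofilament genes NEFM and NEFL made up nearly all of this sum, since the other 10 markers summed to 12.8 to 19.0 RPKM. None of 6 glial markers reached 1 RPKM in any library, and the 6 summed to 0.889 to 1.27 RPKM. RPKM counts reads relative to the transcript length in kilobases and to the library size in units of 1000000 reads. DDX3X itself was at 107 RPKM with control siRNA and 31.3 RPKM with DDX3X siRNA, and at 119 RPKM with GFP, 2894 with WT, 3279 with T275M and 1906 with G302V. Recovered depth was 43720000 to 180870000 reads per library, deepest for DDX3X siRNA, at 2.68 times the depth of control siRNA. The enzymes were covered by 1338 to 82229 reads per library. With 1 library per group no replicate spread exists, and intervals cover counting error only. In bulk RNA, fewer cells expressing a gene and less of its RNA per cell cannot be told apart.

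Cells build serine from a glycolytic intermediate in the PHGDH, PSAT1 and PSPH steps, and mitochondrial SHMT2 then splits serine into glycine and a one-carbon unit on folate. MTHFD2 and ALDH1L2 oxidise that unit further, ALDH18A1 and PYCR1 turn glutamate into proline, and ASNS amidates aspartate to asparagine. Many of these genes are known targets of ATF4, the transcription factor induced when amino acids are short, which binds C/EBP-ATF response elements together with a C/EBP partner.

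ASNS is the enzyme on which the low values after DDX3X siRNA were first seen, so the stretch of its promoter that holds a core of such an element is shown. RefSeq promoter windows (GRCh38.p14, 250 bases before to 50 bases after a start site) were listed for 6 of the 10 genes, namely ASNS, PCK2, PHGDH, PSAT1, MTHFD2 and ALDH18A1, and gave 7 windows. The core TGATGNAA, in which N is any base, was searched on both strands with no overlap to another motif considered. It was found in 1 of the 7 windows, and in 3.62% of all 35116 windows of that length (1270 windows). ASNS had 2 windows, and only 1 of them held the core. The stretch below covers bases 79 to 50 before the start site of that window, on the minus strand. It matched GRCh37 once, at chr7:97501770-97501799, inside the annotated ASNS gene interval. Capitals mark the core, at bases 68 to 61 before the start.
ASNS: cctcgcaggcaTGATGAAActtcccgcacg
A match of these letters is a description of the window and does not show that a factor binds there.

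ASNS and PCK2 were the enzymes furthest below control after DDX3X siRNA, the serine and one-carbon enzymes were lower by smaller steps, and ALDH18A1 was higher. The 10 enzymes together took 0.248% of the reads with control siRNA and 0.181% with DDX3X siRNA. In the plasmid arm their share was 0.219% with GFP, 0.218% with WT, 0.201% with T275M and 0.189% with G302V. The DDX3X siRNA library thus had the lowest share of the 6, and G302V the lowest of the sorted libraries.

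**Figure D1:**
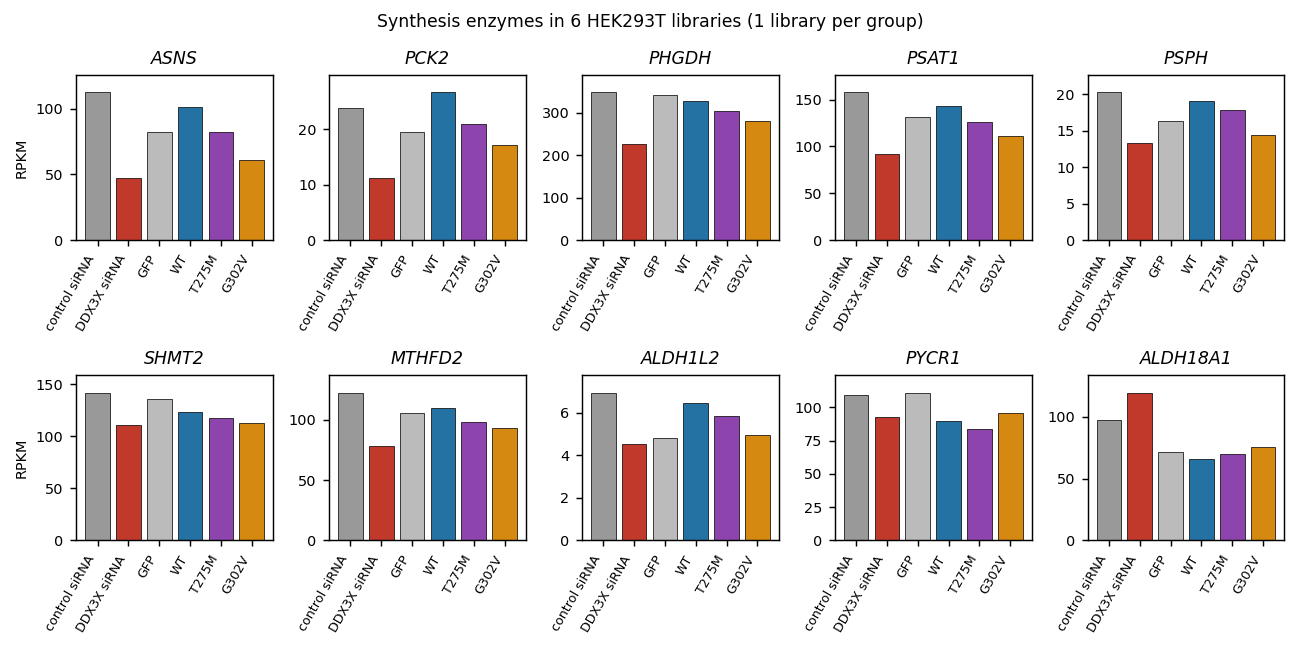
Expression of the 10 enzymes (RPKM, linear axes from 0) in the 6 HEK293T libraries, 1 bar per library and 1 panel per gene, with no error bars because each group holds 1 library. The DDX3X siRNA bar is the lowest in 8 of the 10 panels and the highest in that of ALDH18A1, where it stands at 119.8 RPKM. The share of all genes lowest in that library was not counted.

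ASNS, asparagine synthetase, lies at chr7:97480989-97501854 on the minus strand of GRCh37. It was at 113 RPKM with control siRNA and 47.3 RPKM with DDX3X siRNA, and at 82.2 RPKM with GFP, 102 with WT, 82.5 with T275M and 60.9 with G302V. The control siRNA library was the highest and the DDX3X siRNA library the lowest, and the neighbours GFP and T275M in this order differed by less than counting error. Differences between libraries are given as log2 ratios, the difference of log2(RPKM + 1), with the exact 95% counting interval. The ASNS log2 ratio of DDX3X siRNA to control siRNA was -1.24 (-1.27 to -1.20), a level of 42.0% of control. It ranked 4th from the lowest among 12694 genes tested, which are those that passed a filter on low values (1 RPKM and 10 reads in either library). The 6 rows that the tables hold for ASNS share reads and gave log2 ratios of -1.24 to -1.23.

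PCK2, the mitochondrial phosphoenolpyruvate carboxykinase (chr14:24563262-24579807, plus strand), makes phosphoenolpyruvate from oxaloacetate. It was at 23.9 RPKM with control siRNA, 11.2 with DDX3X siRNA, 19.5 with GFP, 26.7 with WT, 20.9 with T275M and 17.2 with G302V. WT was its highest library, and all neighbours in the order differed beyond counting error. The siRNA log2 ratio was -1.02 (-1.08 to -0.96), 47.0% of control, and ranked 8th from the lowest. Its cytosolic paralog PCK1 was at 0.204 to 0.392 RPKM in the 6 libraries, so PCK2 was 30.3 to 95.8 times as high in RPKM.

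The 3 enzymes of the serine pathway were lower after DDX3X siRNA in the order PSAT1, PHGDH, PSPH. PHGDH (chr1:120191034-120286841, plus strand), which oxidises 3-phosphoglycerate at the entry to the pathway, was the most abundant of the 10 enzymes. It was at 349 RPKM with control siRNA, 226 with DDX3X siRNA, 342 with GFP, 329 with WT, 305 with T275M and 280.1 with G302V. Its siRNA log2 ratio was -0.63 (-0.64 to -0.61). PSAT1 (chr9:80912041-80945009, plus strand), the transaminase of the pathway, was at 158 RPKM with control siRNA, 92.2 with DDX3X siRNA, 131 with GFP, 143 with WT, 126 with T275M and 111 with G302V. The PSAT1 log2 ratio was -0.77 (-0.79 to -0.74), 58.4% of control. PSPH (chr7:56078744-56119297, minus strand), the phosphatase that releases serine, was the least abundant of the 3. It was at 20.3 RPKM with control siRNA, 13.4 with DDX3X siRNA, 16.4 with GFP, 19.2 with WT, 17.9 with T275M and 14.5 with G302V, and its siRNA log2 ratio was -0.57 (-0.63 to -0.51). For each of the 3 enzymes the control siRNA library was highest, DDX3X siRNA lowest and G302V next to lowest, and no neighbouring pair lay within counting error.

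The mitochondrial folate enzymes were also lower after DDX3X siRNA, MTHFD2 most. SHMT2 (chr12:57623356-57628718, plus strand), the serine hydroxymethyltransferase, was at 142 RPKM with control siRNA, 111 with DDX3X siRNA, 135 with GFP, 124 with WT, 118 with T275M and 113 with G302V. The SHMT2 log2 ratio in the siRNA pair was -0.36 (-0.38 to -0.34), and the DDX3X siRNA and G302V levels were close to each other, at a log2 difference of 0.03 (0.0045 to 0.06). MTHFD2 (chr2:74413299-74444692, plus strand), a methylenetetrahydrofolate dehydrogenase and cyclohydrolase, was at 123 RPKM with control siRNA, 78.2 with DDX3X siRNA, 106 with GFP, 110.1 with WT, 98.0 with T275M and 93.1 with G302V. Its siRNA log2 ratio was -0.65 (-0.67 to -0.62), 63.7% of control. ALDH1L2 (chr12:105413562-105501421, minus strand), the mitochondrial formyltetrahydrofolate dehydrogenase, was the least abundant of the 10 enzymes. It was at 6.95 RPKM with control siRNA, 4.53 with DDX3X siRNA, 4.82 with GFP, 6.47 with WT, 5.86 with T275M and 4.97 with G302V, where GFP and G302V lay within counting error of each other. Its siRNA log2 ratio was -0.52 (-0.58 to -0.47). At these levels the added 1 RPKM matters, since the RPKM of ALDH1L2 alone was 1.54-fold lower and that of PSPH 1.52-fold lower.

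Each of these folate enzymes has a paralog that was lower in every library. SHMT1, the cytosolic hydroxymethyltransferase, was at 19.1 to 22.1 RPKM, and SHMT2 was 5.22 to 6.42 times as high. MTHFD2L was at 1.42 to 1.72 RPKM, and MTHFD2 was 47.0 to 86.5 times as high. ALDH1L1 was at 0.195 to 0.408 RPKM, and ALDH1L2 was 12.3 to 23.3 times as high. Per length, SHMT1 was the most abundant of these paralogs. The log2 ratio of SHMT1 in the siRNA pair was -0.20 (-0.25 to -0.15).

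DDX3X siRNA was the lowest library for the other 8 enzymes, but for neither of the 2 proline enzymes. The share of all genes with their lowest level in that library was not counted. PYCR1 (chr17:79890260-79900288, minus strand), which reduces pyrroline-5-carboxylate to proline, was at 109 RPKM with control siRNA, 93.0 with DDX3X siRNA, 111 with GFP, 89.7 with WT, 83.4 with T275M and 95.9 with G302V. T275M was its lowest library and GFP its highest, with GFP and control siRNA within counting error. Its siRNA log2 ratio was -0.23 (-0.26 to -0.20). ALDH18A1 (chr10:97365698-97416468, minus strand), the pyrroline-5-carboxylate synthase, was at 97.2 RPKM with control siRNA, 119.8 with DDX3X siRNA, 71.8 with GFP, 65.6 with WT, 70.1 with T275M and 75.7 with G302V. Both siRNA libraries were above all 4 sorted libraries for this gene, and T275M and GFP lay within counting error. The siRNA log2 ratio of ALDH18A1 was 0.30 (0.28 to 0.32), the only positive value of the 10 enzymes in this pair.

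A gene was counted as lower or higher when its log2 ratio lay past 1.5-fold (0.58). In the siRNA pair, 5 of the 10 enzymes were lower by this rule (ASNS, PCK2, PSAT1, MTHFD2 and PHGDH) and none was higher, where 0.961% of the 12694 genes tested were lower and 1.04% higher. At a threshold of 2-fold, 2 of the 10 (ASNS and PCK2) were lower, where 0.0630% of all genes (8 genes) were. The counting interval lay below 0 for 9 of the 10 enzymes and for 5092 of the 12694 genes tested. These counts describe a comparison that was known when the enzymes were picked, so nothing is read from them. The median log2 ratio was -0.60 over the 10 enzymes and -0.02 over all genes tested. PHGDH, at -0.63, lay just past the threshold and PSPH, at -0.57, just short of it. With the libraries scaled by their median ratio to each other, PHGDH moved to -0.57 and 4 enzymes were counted as lower. The 2 libraries also differed in depth, as given above, and the part of depth in these values was not tested.

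**Figure D2:**
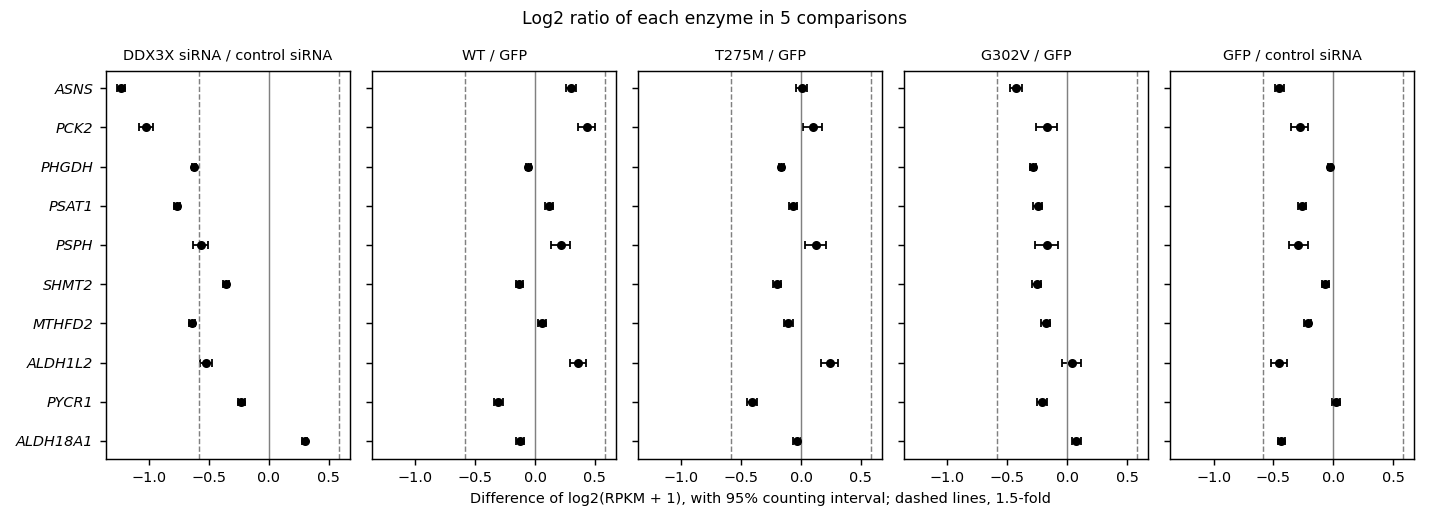
Log2 ratio of each enzyme (difference of log2(RPKM + 1)) in 5 comparisons of 2 libraries each, with points for the ratio, horizontal bars for the 95% counting interval and dashed lines at 1.5-fold. In the siRNA pair 5 enzymes lie left of the lower dashed line, and in the other 4 comparisons all 10 lie between the lines.

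In the plasmid arm the comparisons ask how expression of DDX3X or a mutant form differs from GFP alone. They share the GFP library, so their values are set side by side and not correlated. With WT, 6 enzymes were above GFP beyond counting error, namely PCK2 at a log2 ratio of 0.43 (0.36 to 0.50), ALDH1L2 at 0.36 (0.29 to 0.43), ASNS at 0.30 (0.26 to 0.34), PSPH at 0.21, PSAT1 at 0.12 and MTHFD2 at 0.06. The other 4 were below it, with PYCR1 at -0.31 (-0.35 to -0.27), SHMT2 at -0.13, ALDH18A1 at -0.13 and PHGDH at -0.06. Over all genes tested the interval lay above 0 for 41.1% and below 0 for 21.3%. MTHFD2 stood at the median of all genes and turned to -0.0021 with median-ratio scaling. None of the 10 passed 1.5-fold, where 0.248% of 12915 genes tested were lower and 1.97% higher. The median was 0.09 over the enzymes and 0.05 over all genes.

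With T275M, the enzymes spread to both sides of GFP. ALDH1L2 was at a log2 ratio of 0.24 (0.16 to 0.31), PSPH at 0.12 (0.03 to 0.21) and PCK2 at 0.10 (0.02 to 0.18). ASNS at 0.01 (-0.04 to 0.05) and ALDH18A1 at -0.03 (-0.07 to 0.0024) were not distinguishable from GFP at this depth. Below GFP were PYCR1 at -0.41 (-0.45 to -0.37), SHMT2 at -0.20, PHGDH at -0.17, MTHFD2 at -0.11 and PSAT1 at -0.06. PYCR1 held the lowest ratio of the 10 here, as it did with WT. Of all 12912 genes tested, the interval lay above 0 for 5704 and below 0 for 3025. None of the 10 passed 1.5-fold, where 0.395% of 12912 genes were lower and 2.25% higher, and the median was -0.05 against 0.07 over all genes. The intervals of PSPH and PCK2 include that median of all genes, and PCK2 was at 0.04 with median-ratio scaling.

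With G302V, 8 of the 10 enzymes were below GFP beyond counting error, where the interval lay below 0 for 26.3% of all genes tested. ASNS was lowest at a log2 ratio of -0.43 (-0.48 to -0.37), followed by PHGDH at -0.29 (-0.31 to -0.26), SHMT2 at -0.26, PSAT1 at -0.25, PYCR1 at -0.21 and MTHFD2 at -0.18, with PCK2 and PSPH both at -0.17. ALDH18A1 was above GFP at 0.08 (0.04 to 0.11), and ALDH1L2 at 0.04 (-0.04 to 0.12) was not distinguishable from it at this depth. Here too none passed 1.5-fold, where 0.767% of 12775 genes were lower and 1.00% higher. The median was -0.20 over the enzymes and 0.03 over all genes.

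Set against WT directly, both mutant libraries were lower for most of the enzymes. T275M was below WT beyond counting error for 9 of the 10 and above it for ALDH18A1, at a log2 ratio of 0.09 (0.06 to 0.13), where the interval lay below 0 for 20.5% of 12973 genes. G302V was below WT for 8 of the 10 and above it for PYCR1, at 0.10 (0.05 to 0.14), and ALDH18A1, at 0.20 (0.17 to 0.24), where the interval lay below 0 for 35.8% of 12967 genes. An interval narrows with the reads behind it, so these shares depend on expression level as well as on the size of the difference. The median over the 10 was -0.12 for T275M and -0.28 for G302V, beside 0.00 and -0.03 over all genes. ASNS was at -0.30 (-0.34 to -0.25) with T275M and -0.73 (-0.78 to -0.68) with G302V, and PCK2 at -0.34 (-0.41 to -0.26) and -0.60 (-0.68 to -0.52). ASNS and PCK2 were therefore furthest below WT in both mutant libraries. Both comparisons share the WT library, in which PCK2 and ASNS were above GFP, at 0.43 and 0.30, so their values are not independent. Against GFP, PCK2 and ASNS were at 0.10 and 0.01 with T275M and at -0.17 and -0.43 with G302V. In G302V against WT, ASNS and PCK2 were past 1.5-fold, where 1.45% of all genes were lower by that much, while PCK2 was close to the threshold. None of the 10 was lower than WT by 1.5-fold with T275M, where 0.262% of all genes were. Between the mutants, G302V was below T275M for 8 of the 10 beyond counting error, where the interval lay below 0 for 31.5% of 12925 genes, and the median was -0.15 beside -0.03 over all genes. None of the 10 was lower by 1.5-fold there, where 1.02% of all genes were. DDX3X RNA also differed between these libraries, at 1906 RPKM in G302V, 2894 in WT and 3279 in T275M, and its part in the differences was not tested.

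**Figure D3:**
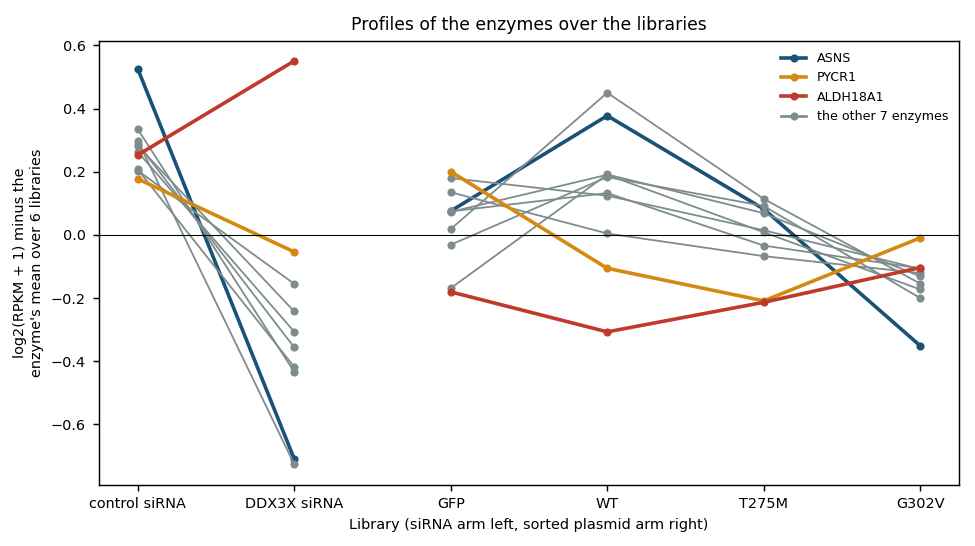
Level of each enzyme as log2(RPKM + 1) minus that enzyme's mean over the 6 libraries, with 1 line per enzyme within each arm and ASNS, PYCR1 and ALDH18A1 in colour. The lines of 9 enzymes go down from control siRNA to DDX3X siRNA and that of ALDH18A1 goes up, where 6914 of all 12694 genes tested were lower. Among the sorted libraries ASNS runs from 102 RPKM with WT to 60.9 with G302V.

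The controls of the arms were themselves apart. GFP was below control siRNA beyond counting error for 9 of the 10 enzymes, most for ASNS at a log2 ratio of -0.45 (-0.49 to -0.41), ALDH1L2 at -0.45 (-0.52 to -0.38) and ALDH18A1 at -0.43 (-0.46 to -0.40). PSPH was at -0.29, PCK2 at -0.28, PSAT1 at -0.26, MTHFD2 at -0.21, SHMT2 at -0.07 and PHGDH at -0.03, and PYCR1 at 0.02 (-0.01 to 0.06) was not distinguishable. Over all genes tested the interval lay below 0 for 31.3%. None of the 10 passed 1.5-fold, where 1.11% of 12730 genes were lower and 1.22% higher, and the median was -0.27 against 0.01 over all genes. Transfection, time and sorting differ between these controls and cannot be told apart. For ASNS these 2 controls were about as far apart as G302V and GFP, and the median over the 10 enzymes was further from 0 than in any comparison with GFP as the reference.

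Likeness to ASNS was measured as Pearson's r of log2(RPKM + 1) over the 6 libraries, which include the siRNA pair, share cell line and preparation and differ in depth. The most like of 1171 genes that reached 10 RPKM somewhere and ranged over at least 1.5-fold were PSAT1 (r = 0.993), GLRX (0.979), MTHFD2 (0.970), YARS (0.969) and CARS (0.961). GLRX encodes glutaredoxin, and YARS and CARS encode the tyrosyl- and cysteinyl-tRNA synthetases. PCK2 ranked 8th (0.953) and PHGDH 12th (0.932). PSPH (0.981), ALDH1L2 (0.884), SHMT2 (0.806) and PYCR1 (0.251) had too small a range or level to be ranked, and ALDH18A1 was at -0.483. Of the 10 enzymes, PSAT1 varied most like ASNS and the proline enzymes least. The siRNA pair holds the highest and the lowest level of ASNS and was known when the enzymes were picked. High values of r among the enzymes are therefore partly built in, and nothing is read from their ranks.

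ATF4 RNA was at 453 RPKM with control siRNA, 269.9 with DDX3X siRNA, 487 with GFP, 479.7 with WT, 415 with T275M and 379.7 with G302V. Its siRNA log2 ratio was -0.74 (-0.76 to -0.73), and its r with ASNS was 0.883, rank 24. It was lower with G302V than with GFP, at -0.36 (-0.38 to -0.33), while with WT it was at -0.02. ATF4 did not follow ASNS everywhere. It was lower with T275M than with GFP (415 and 487 RPKM), where ASNS was level. It was higher with GFP than with control siRNA (487 and 453 RPKM), where ASNS was lower. ATF4 and other targets it is known for, 20 genes in all, form a list chosen with earlier results known. In the siRNA pair 19 of them were tested, with a median log2 ratio of -0.32, beside -0.02 over all genes tested. There 4 were lower by 1.5-fold and none higher, where 0.961% of all genes were lower and 1.04% higher. The 4 were ATF4, CHAC1, a glutathione-degrading enzyme at -1.86 (-1.98 to -1.73), SLC7A11, the cystine transporter, at -1.30 (-1.35 to -1.24), and DDIT4, an inhibitor of mTORC1 signalling, at -0.75. With WT 3 genes of this list were higher by 1.5-fold, the stress-induced regulators NUPR1 at 0.90, DDIT3 at 0.75 and ATF3 at 0.71, and none was lower. Of all genes, 1.97% were higher with WT and 0.248% lower. With T275M, ATF3 was at 0.94, NUPR1 at 0.75 and DDIT4 at 0.68, and with G302V, ATF3 was at 0.66 and CHAC1 at -0.76. The shares of all genes were 2.25% higher and 0.395% lower with T275M, and 1.00% higher and 0.767% lower with G302V. Between the controls, GFP minus control siRNA, CHAC1 was at 0.72, SLC7A11 at -0.63 and DDIT4 at -0.84, where 1.22% of all genes were higher and 1.11% lower. CHAC1 and DDIT4 lay on opposite sides of 0 between the controls, and DDIT4 was above GFP with T275M where ASNS was level with it. These values are of RNA only, and the part of ATF4 in the differences was not tested.

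In the siRNA pair, 4 lists of other enzymes next to the 10 in metabolism had medians of -0.12 to -0.05, beside -0.02 over all genes tested. The 10 were picked with this pair in view, so a contrast with them is not a result. Of all genes tested, 0.961% were lower by 1.5-fold and 1.04% higher. Of 20 further genes of the folate and glycine cycle, 18 were tested and none passed 1.5-fold, with a median of -0.07 and the methionine synthase gene MTR furthest from 0, at 0.37 (0.35 to 0.40). Of 15 further genes of glutamate, aspartate and proline metabolism, 14 were tested, with a median of -0.06, and 1 was higher by 1.5-fold and none lower. Of 14 glycolytic and phosphoenolpyruvate genes, 13 were tested and none passed, with a median of -0.12 and the phosphofructokinase gene PFKP lowest at -0.45 (-0.49 to -0.41). Of 10 genes of serine use and transsulfuration, 9 were tested and CTH, which makes cysteine from cystathionine, was lower at -0.79 (-0.88 to -0.71), with a median of -0.05. CTH stood at 10.7 RPKM with control siRNA and 5.78 with DDX3X siRNA, and at 9.49 with GFP, 16.4 with WT, 14.2 with T275M and 8.41 with G302V. Its log2 ratio to GFP was 0.73 (0.63 to 0.82) with WT, the only value past 1.5-fold in these 4 neighbouring lists in the plasmid comparisons. Among the neuronal markers, the synaptic gene SNAP25 was at 1.09 with WT and 0.99 with T275M against GFP, and passed the filter on low values only through those libraries, with 13 reads in GFP. SYP, another synaptic gene, was at 0.82 with G302V. The far more abundant neurofilament genes NEFM and NEFL were at -0.41 and -0.36 with WT.

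**Figure D4:**
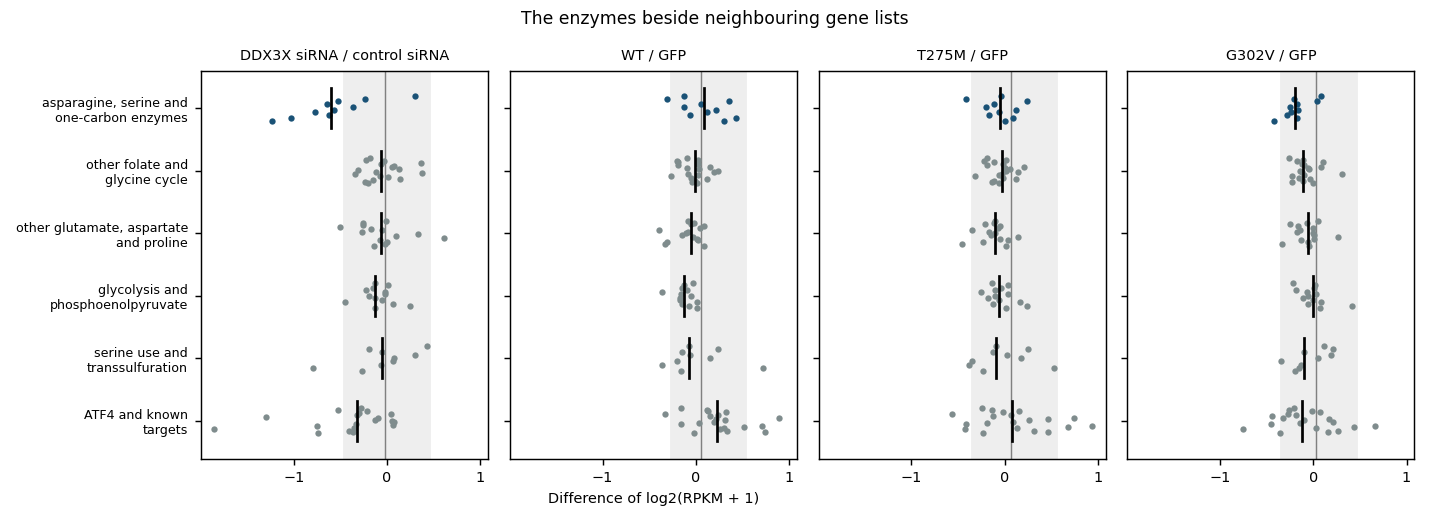
Log2 ratios (difference of log2(RPKM + 1)) of the 10 enzymes and of 5 neighbouring gene lists in 4 comparisons, with 1 dot per gene tested, a black bar at each list's median, a grey line at the median of all genes tested and a grey band over their central 95%. In the siRNA pair the median of the 10 enzymes stands at -0.60 and those of the other lists between -0.32 and -0.05.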

How the data were processed

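Total RNA of HEK293T cells was made into 6 TruSeq libraries, 1 per group taken from the sample labels, and sequenced on a HiSeq instrument. The deposited values are RPKM per RefSeq row (39618 rows), as the file headers state, although the methods of the study call the normalisation FPKM. Per the methods and the submitters' processing notes, the authors trimmed reads with cutadapt, aligned them with BWA 0.5.5 to human Build 37 (hg19), RefSeq transcripts, exon junctions and AceView, kept the best alignment, removed duplicates and divided reads per gene by length and library total. Reads of near-identical copies and of rows of 1 gene may therefore be shared.

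Reads and depth were recovered from RPKM times row length, which was a whole multiple of a step per library, within 0.1 of a read, in 100% of the 6355 to 7529 low rows checked in each. Log2 ratios were differences of log2(RPKM + 1), which understates changes at low levels. A gene was tested with 1 RPKM or more and 10 reads or more in at least 1 of 2 libraries. Intervals are exact (Clopper-Pearson, 95%) and cover counting error only. Reads are not independent molecules. With 1 library per group, no p-value was computed. The members and gene lists were chosen with earlier results of these data known. The named genes are the 10 members, DDX3X, paralogs, ATF4, genes of the other lists past 1.5-fold in any comparison or, where a list had none, the gene furthest from 0 in the siRNA pair, and the 5 genes most like ASNS. Some genes under this rule are not reported here. Positions are GENCODE version 44 mapped to GRCh37. Alternatives were pseudocounts of 0.1 and 10, no filter, median-ratio scaling, summed rows, a 2-fold threshold and a required interval without 0. Calculations were tested on simulated data and used Python 3.11.15, numpy 2.4.6, pandas 2.3.3, scipy 1.17.1 and matplotlib 3.10.9.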

Additional observations from a re-analysis of the deposited data

How the results depend on the processing

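With a pseudocount of 10, the median log2 ratio of the 10 enzymes moved from -0.60 to -0.48 in the siRNA pair and from -0.27 to -0.20 between the controls. With median-ratio scaling it was -0.55 in the siRNA pair, 0.0275 for WT and -0.11 for T275M. By construction the pseudocount shrinks ratios and the scaling shifts all genes of a comparison together. In the siRNA pair 2 enzymes were lower at 2-fold (0.0630% of all genes), 4 with median-ratio scaling (0.700%) and 7 with a pseudocount of 0.1 (2.43%), and the other alternatives gave 5. Leaving out the filter could not change this count, since all 10 enzymes passed it. The required interval could not either, since the intervals of these 5 enzymes lay below 0. No enzyme passed 1.5-fold in a construct against GFP or in GFP against control siRNA under any alternative. The same alternatives were run for the mutants against WT and each other after seeing the data. In G302V against WT, 2 enzymes were lower by 1.5-fold, 1 with a pseudocount of 10 (0.0925% of all genes), 1 with median-ratio scaling (1.21%) and 0 at 2-fold (0.177%). In T275M against WT and G302V against T275M the count was 0 under all of them. Of the 50 enzyme ratios of the first 5 comparisons (the siRNA pair, the constructs against GFP and the controls), 2 changed sign, both under median-ratio scaling: MTHFD2 in WT against GFP (-0.0021) and ASNS in T275M against GFP (-0.05). Leaving out the filter on low values could change none of the 50 ratios, since all 10 enzymes passed it. No replicate exists that could be left out. No paired analysis was possible because each group holds 1 library. Depth limits ALDH1L2, PCK2 and PSPH most, which have the fewest reads.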
